A study of Homo sapiens with 97 samples.

Results

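Mid-late dips are stretches of U2OS chromosomes that replicate in mid-late S phase and lie between mid-early domains on both sides, so that they form a local minimum of replication timing that never reaches the late class. They were found in 4 lists of timing intervals (early, mid-early, mid-late and late) by joining touching intervals of the same class into domains on chromosomes 1 to 22 and X. Of 13611 domains, 4289 were mid-late, and 1829 of these were dips. The timing lists chose the dips, so their number, length and neighbours are descriptions without a test. NS-seq peaks and AsiSI sites played no part in the choice.

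The study followed DNA replication around double-strand breaks. The timing lists come from 2 merged samples of untreated wild-type U2OS cells, an osteosarcoma line, in G1 and in S phase. Replication origins were mapped by NS-seq, the sequencing of short newly made strands, in AsiSI-U2OS cells with or without 4-hydroxytamoxifen (4OHT, 300 nM for 4 h), which turns on the restriction enzyme AsiSI. Its single list of merged peaks is attached to an input sample, and the sources used here do not say which of the 4 NS-seq samples it merges. The list of AsiSI sites that overlap the break nuclease MRE11 comes from HCT116 colorectal carcinoma cells treated with 4OHT, which lack the end-joining ligase LIG4 and carry the cohesin subunit RAD21 with an auxin-inducible degron. Timing, origins and breaks were therefore measured in different lines or derivatives. No list separates replicates. Read depth is unknown, and intervals given for counts cover counting error only.

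Human cells copy their chromosomes in a set order, in which gene-rich, open chromatin generally replicates early and gene-poor, compact chromatin late. Origins fire in clusters, forks move outwards from them, and a timing minimum between earlier domains is commonly a place where forks from both sides meet. A minimum can also hold origins of its own that fire later in S phase.

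The dips were many and mostly short. They covered 282 Mb, which was 9.54% of the listed sequence and 36.2% of all mid-late sequence. Their median length was 107 kb, with an interquartile range of 61.2 to 191 kb, and 1225 of them (67.0%) were a single listed interval. The other large kinds of mid-late domain were 1068 ramps, with a mid-early domain on one side and a late domain on the other, and 1233 islands, with late domains on both sides. Ramps had a median length of 222 kb and islands of 103 kb, so dips and islands were of similar length and ramps were longer. A further 124 mid-late domains missed the definition of a dip because one neighbour was mid-early and the other early, and 7 lay between early domains.

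**Figure D1:**
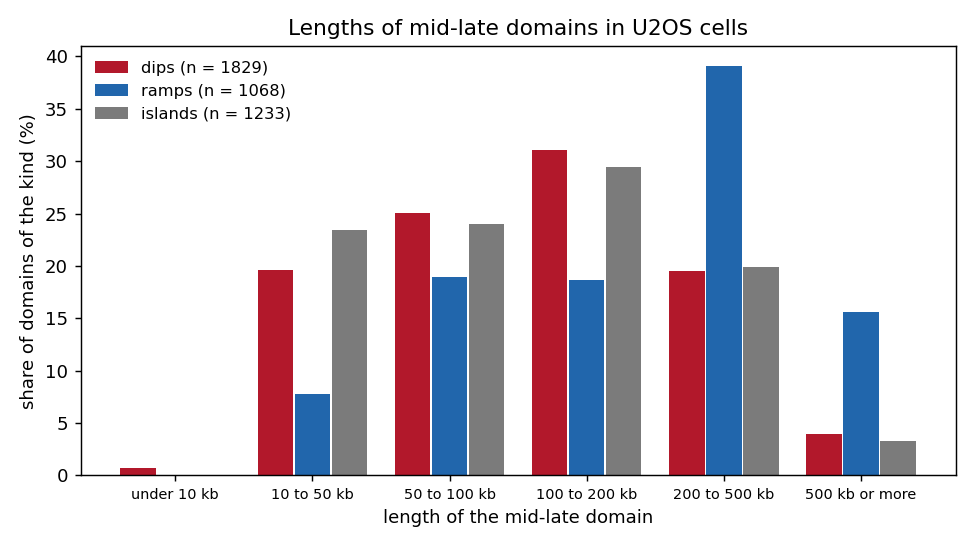
Share of mid-late domains (y axis, percent of each kind) by length class (x axis, kb) for 1829 dips, 1068 ramps and 1233 islands. Most dips and islands were under 200 kb, while the tallest bar of the ramps is the class from 200 to 500 kb.

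At the long end, 73 dips reached 500 kb and 4 reached 1 Mb. The longest was on chromosome 7 (25421701 to 26780100, 1358 kb), followed by one on chromosome 1 (220124001 to 221314200, 1190 kb). The next pair lay close together on chromosome 8 (120703201 to 121807600, 1104 kb, and 122326701 to 123362200, 1036 kb) in the same run of 6 dips. Chromosome 3 carried 3 of the 10 longest, at 40743101 to 41716000 (973 kb), 55511701 to 56423100 (911 kb) and 178161501 to 179059300 (898 kb). The last of these was also the only one of the 10 with an AsiSI site bound by MRE11. The list closed with chromosome 5 (78714701 to 79596400, 882 kb), chromosome 17 (71667701 to 72545700, 878 kb) and chromosome 6 (20480401 to 21346100, 866 kb). The next longest dip measured 861 kb. Together the 10 spanned 10096 kb and held only 3 NS-seq peaks, with 8 of them holding none.

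At the short end, 13 dips were under 10 kb, and all 13 lay within 5 Mb of a chromosome end. The 9 dips under 1 kb all lay within 100 kb of an end. Whether timing can be measured so close to an end was not checked, so these may not be true minima. The shortest, on chromosome 9 (5401 to 5500), was 100 bp long, which is the step of the listed coordinates, and its flanks were 0.4 and 0.1 kb. None of the 13 held a peak or a site, and without domains under 10 kb there were 1816 dips. The number fell further, to 868, when domains under 50 kb of any class were passed over before neighbours were read, so the count depends on how finely the timing profile is divided.

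The mid-early domains around the dips were short as well. They had a median length of 81.0 kb over both sides of each dip, and 791 dips (43.2%) were longer than either of their flanks while 485 (26.5%) were shorter than both. Beyond the flanks, timing most often rose to early on one side and fell back to mid-late on the other, which was the case for 804 dips (44.0%). Another 649 dips (35.5%) had mid-late sequence beyond both flanks. Early sequence lay beyond both flanks of 364 dips (19.9%), and these were shorter, with a median of 75 kb against 140 kb for dips with mid-late sequence on both far sides. Only 2 dips had a late domain beyond a flank.

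Many dips had another dip beyond a flank. When neighbouring dips separated by a single mid-early domain were counted as a run, 1198 dips (65.5%) lay in runs of 2 or more and 631 stood alone. Whether this share is above that expected from the mix of timing classes was not tested. There were 3 runs of 9 dips. The first covered 116515501 to 119767500 on chromosome 1 (3.25 Mb) and held 0 NS-seq peaks in dips of 84.7 to 645 kb. The second covered 137604301 to 139778900 on chromosome 9 (2.17 Mb), where all 9 dips held a peak and 22 of the 28 peaks of the span lay inside the dips. The third covered 79055801 to 81225200 on chromosome 15 (2.17 Mb), with 1 peak in its dips. Runs of the same number of dips thus ranged from no peak to a peak in every dip. They also differed in the length of their dips, 2582 kb in all on chromosome 1 and 1179 kb on chromosome 9, and of the 3 only the run on chromosome 9 lay within 5 Mb of a chromosome end.

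Every chromosome carried dips, from 25 on chromosome 22 to 154 on chromosome 1. Their number per 10 Mb of chromosome, counted up to its last listed base, varied little, between 4.43 on chromosome 17 and 7.89 on chromosome 6, with a median of 5.82. On chromosomes 13, 14, 15, 21 and 22 this length includes a stretch at the left that is not listed, which lowers their values. The share of the listed sequence varied more, from 4.94% on chromosome 17 to 14.0% on chromosome 6 and 13.6% on chromosome 21. As a share of mid-late sequence, dips made up 56.4% on chromosome 22 and 49.2% on chromosome 21, against 22.8% on chromosome 18 and 23.2% on chromosome 4. Median dip length ran from 77.0 kb on chromosome 17 to 136 kb on chromosome 14.

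Taken over whole chromosomes, NS-seq peaks were denser in the dips than over all domains. The list held 3724 peaks on these chromosomes, each 1000 bp wide with a score of at least 10.0, so weaker origins may be missing from it. Placed by midpoint, 552 peaks (14.8%) lay in dips, or 1.96 per Mb (exact Poisson interval 1.80 to 2.13). Ramps held 229 peaks (0.790 per Mb, interval 0.691 to 0.899) and islands 98 (0.534 per Mb, 0.434 to 0.651). The 159 mid-late domains of other kinds, most of them between a mid-early and an early domain, held 51 peaks (2.26 per Mb, 1.68 to 2.97), so high density was not particular to dips within the mid-late class. Dips thus held 59.4% of the peaks of the mid-late class in 36.2% of its sequence. The early class as a whole had 1.83 peaks per Mb, the late class 0.324 and all domains together 1.26 (1.22 to 1.30). These values include chromosome ends, and all domains within 5 Mb of an end held 6.40 per Mb (6.06 to 6.76). Dips more than 5 Mb from an end held 0.970 per Mb (0.852 to 1.10), which the 1.26 of all domains does not match in place. All domains farther in were not given a density of their own, and the early and late classes were not split by distance from an end. A higher density in dips than over all domains is therefore not shown away from the ends. Most dips were nevertheless empty. A peak was present in 275 of the 1829 dips (15%), a share close to the 13.1% of all domains and above the 11.3% of all mid-late domains. The count was 121 for ramps (11.3%), 58 for islands (4.70%) and 30 for the other kinds (18.9%).

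The difference from ramps and islands was tested in a quasi-Poisson regression of peak counts over all 4289 mid-late domains, with domain length as the exposure and chromosome as a term. Peak density in dips was 2.48 times that in ramps (95% interval 1.92 to 3.2, n = 4289 domains, adjusted p = 9.38e-12) and 3.52 times that in islands (2.46 to 5.03, adjusted p = 9.38e-12), with p-values adjusted over 3 comparisons. Domains are neighbours on the same chromosomes and come from a single peak list, so they are not replicates of a condition. With standard errors clustered by chromosome, which allow for this in part, the ratios had intervals of 1.80 to 3.41 and 2.36 to 5.25 (n = 4289 domains, adjusted p = 9.43e-06 and 4.34e-06). Dips were denser than ramps on 21 of 23 chromosomes and denser than islands on 22 of 23. The exceptions were chromosomes 15 and 18 for ramps and chromosome 1 for islands. When domains within 5 Mb of a chromosome end were left out, the ratios were 1.78 and 2.74 (n = 3866 domains, adjusted p = 0.000263 and 1.89e-05, or 0.000824 and 0.000687 with clustered errors).

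Against the mid-early domains that surround them, the dips stood apart much less. The 2882 flanking domains held 573 peaks, or 1.49 per Mb (interval 1.37 to 1.62). The fitted density in dips was 1.35 times that in flanks (95% interval 1.11 to 1.64, n = 4711 domains, adjusted p = 0.00281, or 1.09 to 1.66 and 0.00724 with clustered errors), and dips were denser on 15 chromosomes and less dense on 8. This call rested on 7 flanks that hold a mid-early interval over 1 Mb and no peak. The flanks covered 385 Mb with these 7 and 330 Mb without them, and the longest flank fell from 21013 to 907 kb. Whether timing and peaks can be measured in intervals of that size was not checked. The 1.49 per Mb and the ratio of 1.35 may therefore reflect sequence in which no peak could be found. Leaving out the 7 flanks gave 1.74 peaks per Mb in flanks and a ratio of 1.19 (interval 0.989 to 1.44, n = 4704 domains, adjusted p = 0.0657). Without chromosome ends as well, the ratio was 1.03 (interval 0.812 to 1.31, n = 4164 domains, adjusted p = 0.795). A higher density in the dip than in its flanks was thus not shown, and the intervals do not show equal density either.

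**Figure D2:**
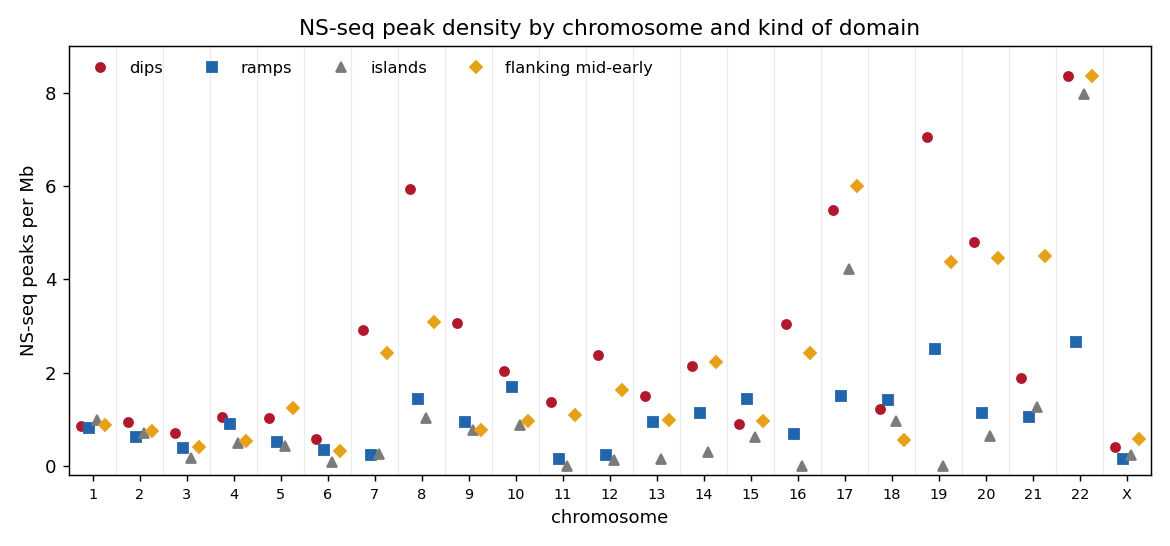
NS-seq peaks per Mb (y axis) on each chromosome (x axis) in dips, ramps, islands and the mid-early domains that flank dips. Dips lie above ramps on 21 of 23 chromosomes, while flanks lie above dips on 8.

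Between chromosomes, peak density in dips ran from 0.415 per Mb on chromosome X to 8.35 on chromosome 22, with a median of 1.89. Chromosome 19 had 7.05 peaks per Mb of dips, chromosome 8 had 5.93 and chromosome 17 had 5.49. Chromosome 8 gave the most peaks, 82 in 80 dips, although only 14 of these dips held any. Without chromosome 8 the density over all dips was 1.75 per Mb. On chromosome 9, by contrast, peaks were spread over 24 of 99 dips.

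Peaks in dips were far denser towards chromosome ends. Among domains whose midpoint lay within 1 Mb of a chromosome end, dips made up 16.7% of the sequence. The share was 13.5% for midpoints from 1 to 5 Mb, 10.2% from 5 to 20 Mb and 8.91% farther in. The 210 dips whose midpoint lay within 5 Mb of an end held 307 peaks, 10.5 per Mb (interval 9.38 to 11.8), and 108 of them (51.4%) held at least 1. The other 1619 dips held 245 peaks, 0.970 per Mb (0.852 to 1.10), and 167 of them (10.3%) held at least 1. The rise towards the ends was not particular to dips. Flanks, including those with an interval over 1 Mb, went from 0.842 peaks per Mb away from the ends to 8.10 near them. Ramps went from 0.512 to 4.13 and islands from 0.294 to 3.67. Of 39 chromosome ends with a dip within 5 Mb, 35 had a peak in such a dip, and the 5 ends with most gave 50.2% of these peaks. Those were the right ends of chromosomes 8 (71 peaks), 9 (30), 20 (20) and 16 (15) and the left end of chromosome 7 (18).

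**Figure D3:**
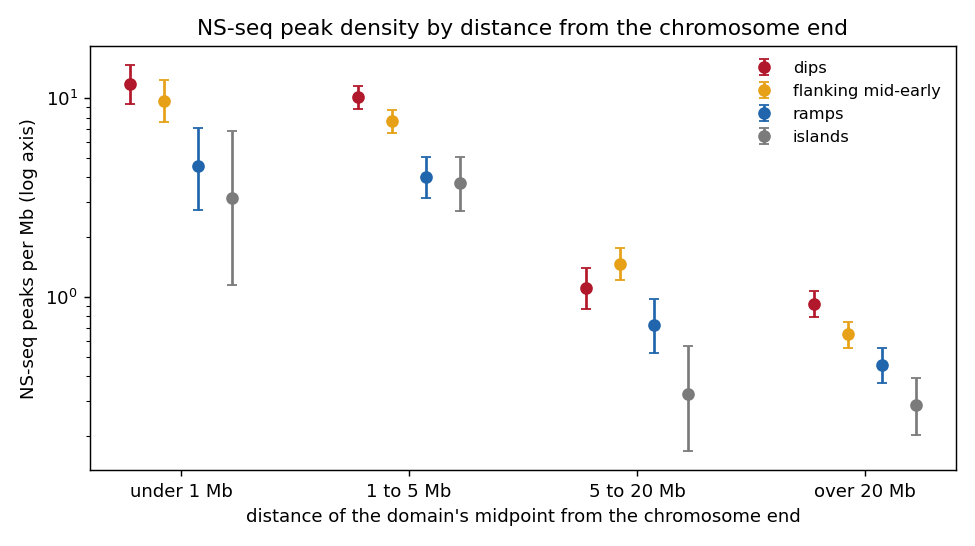
NS-seq peaks per Mb (y axis, log scale) in dips, flanking mid-early domains, ramps and islands by distance of the domain's midpoint from the chromosome end (x axis, Mb), with exact Poisson intervals. In dips the density is 11.8 per Mb under 1 Mb and 10.1 from 1 to 5 Mb, and 1.11 and 0.922 in the zones farther in.

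Peaks within dips were also clustered. A single peak was found in 165 dips, and 110 dips with 2 or more peaks held 387. The 10 dips with most peaks held 107, or 19.4% of all peaks in dips, and 8 of these 10 lay within 5 Mb of a chromosome end. The fullest was on chromosome 8 (144328801 to 144723900, 395 kb), with 24 peaks at a median spacing of 8.56 kb and scores from 10.1 to 19.7. Its neighbour in the same run (144902301 to 145071400, 169 kb) held 14. Chromosome 8 carried 3 more of the 10, at 145607301 to 145793600 (10 peaks), 142357501 to 142491500 (9) and 142522901 to 142776900 (9). The right end of chromosome 20 had 11 peaks at 61965301 to 62240700 and 7 at 60871801 to 61058000. These dips lie on either side of the same mid-early domain of 907 kb, which held 20 peaks.

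The densest of the 10 was on chromosome 7 (1512401 to 1588400), with 9 peaks in 76.0 kb, and its flanks held 9 and 4. The remaining members were more than 20 Mb from the nearer end of their chromosome, counted on the left from its first base. On chromosome 22 the listed sequence starts farther in than that base, so the dip there is nearer to the first listed base. On chromosome 19 (36743701 to 36824400, 80.7 kb), 7 peaks filled the dip while its flanks of 207 and 269 kb held 1 and 0. On chromosome 22 (20089101 to 20274800, 186 kb), 7 peaks lay in the dip, against 1 and 0 in flanks of 78.6 and 25.6 kb. In both of these dips, peaks were concentrated in the later-replicating middle and not in the earlier sequence around it. Both belong to the 10 dips picked for most peaks, a choice that favours dips fuller than their flanks.

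**Figure D4:**
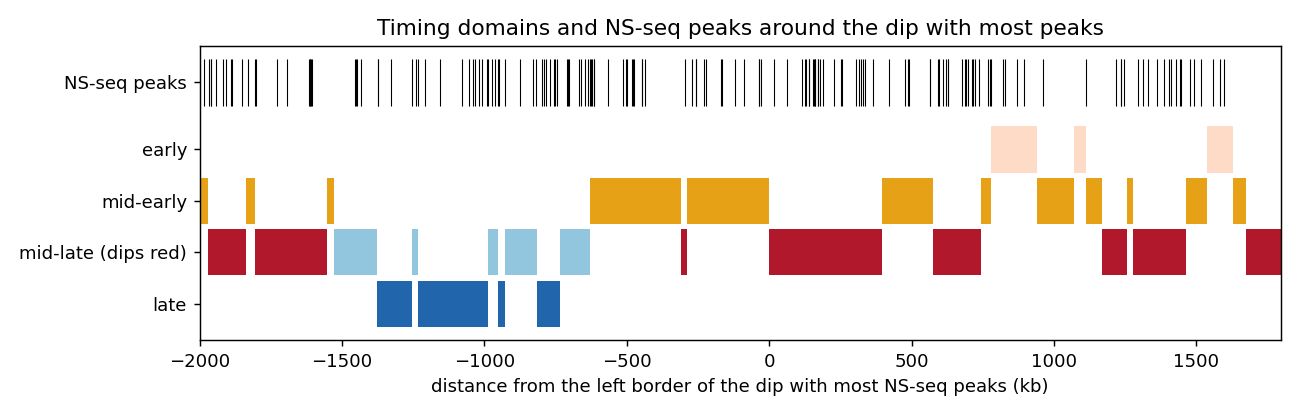
Timing domains by class (bars, with dips in red) and NS-seq peaks (vertical lines) around the dip with most peaks, on chromosome 8, against the distance from that dip's left border in kb. The map spans 3.80 Mb, and the 7 dips wholly inside it held 71 of its 163 peaks.

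Seen dip by dip, a peak in a flank was more frequent beside dips that held a peak themselves. Of the 275 dips with a peak, 138 also had one in a flank and 137 did not. Of the 1554 dips without a peak, 181 had one in a flank. These counts pool dips near and away from the chromosome ends, and the part of the ends in them was not tested. Of all dips, 1373 (75.1%) had no peak in the dip or either flank. Among the 456 dips with a peak in any of the 3 domains, the dip was denser than its joined flanks in 240 and less dense in 216.

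Short dips were denser in peaks than long ones. Away from the chromosome ends, dips of 10 to 50 kb held 2.41 peaks per Mb (exact Poisson interval 1.56 to 3.56), those of 50 to 100 kb 1.89, those of 100 to 200 kb 1.09, those of 200 to 500 kb 0.751, and those of 500 kb or more 0.317 (interval 0.177 to 0.522). Ramps of 500 kb or more held 0.483 peaks per Mb and islands of that size 0.336, beside 0.512 and 0.294 over ramps and islands of every length away from the ends. In a regression added after these values were seen, with chromosome and nearness to an end as terms, peak density in dips fell to 0.750 of its value per doubling of length (95% interval 0.684 to 0.822, n = 4130 domains, adjusted p = 4.18e-09, or 0.661 to 0.850 and 0.000482 with clustered errors). The same factor was 0.887 in ramps (interval 0.755 to 1.04) and 0.903 in islands (0.734 to 1.11). The ratio of the dips' factor to that of ramps was 0.846 (interval 0.703 to 1.02, n = 4130 domains, adjusted p = 0.179) and to that of islands 0.831 (0.663 to 1.04, adjusted p = 0.179), so a difference between the kinds was not shown over all domains. With clustered errors these intervals were 0.622 to 1.15 and 0.579 to 1.19 (n = 4130 domains, adjusted p = 0.400 for both). Away from the ends the dips' factor was 0.664, and its ratios to ramps and islands were 0.704 and 0.575 (n = 3736 domains, adjusted p = 0.0108 and 0.0032, or 0.0284 and 0.00162 with clustered errors). With the ends kept but chromosome 8 left out, the ratios were 0.757 and 0.707 (n = 3923 domains, adjusted p = 0.00815 for both, or 0.04999 and 0.0422 with clustered errors).

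**Figure D5:**
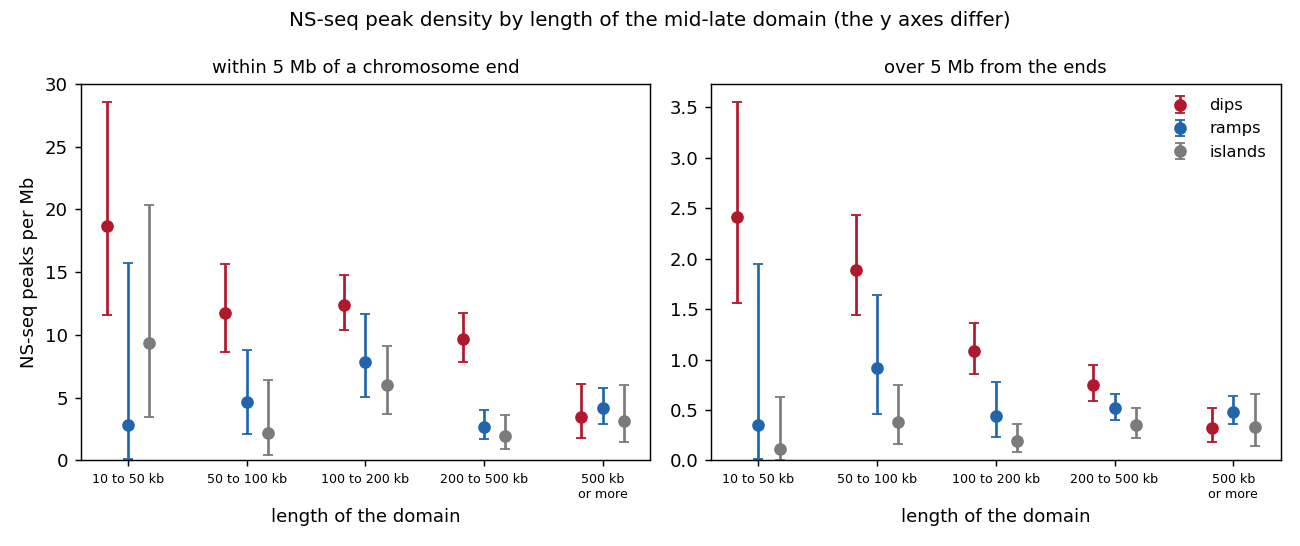
NS-seq peaks per Mb (y axes, which differ in range) by domain length (x axis) for dips, ramps and islands within 5 Mb of a chromosome end (left) and farther in (right), with exact Poisson intervals; 13 dips under 10 kb, all near an end and without peaks, are not drawn. Farther in, dips fall from 2.41 to 0.317 per Mb with length, while ramps stay between 0.349 and 0.917.

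Inside long dips, density near the border was not set apart from that in the middle. Over all dips, density was 2.35 per Mb within 50 kb of a border and 0.865 beyond 150 kb, but only long dips reach that deep. In the 430 dips of 200 kb or more, density was 1.30 per Mb within 50 kb of a border (interval 0.984 to 1.69), 1.40 from 50 to 100 kb (1.06 to 1.80) and 1.18 farther inside (0.935 to 1.46). These intervals overlap. On the outer side of the borders, flank sequence within 50 kb held 1.79 peaks per Mb.

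Where the dip lay in the wider timing landscape also went with peak density. Dips with early sequence beyond both flanks held 2.87 peaks per Mb (interval 2.37 to 3.45), those with early sequence on one far side and mid-late on the other 2.11 (1.85 to 2.38), and those with mid-late sequence on both far sides 1.46 (1.26 to 1.70). These dips also differed in length, and they were not split by distance from a chromosome end. The part of length or of nearness to an end in this order was not tested. Dips that stood alone held 2.17 peaks per Mb and dips in runs 1.87, without an interval for either. Their median lengths were 95.8 and 115 kb, and the difference in density was not tested.

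Peak scores are the authors' value for each peak. Peaks in dips had a median score of 12.0 (interquartile range 10.8 to 14.0, highest 21.7). The median was 12.0 in ramps, 12.6 in islands, 12.0 in flanks and 11.8 over all 3724 peaks. No test was made of the scores. Peaks in dips on chromosome 8 had a median of 12.1 against 12.0 in dips elsewhere.

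AsiSI cuts a rare sequence of 8 bp, and MRE11 gathers at sites that are broken. Of 129 sites bound by MRE11 in HCT116 cells, 19 lay in dips (14.7%, exact Clopper-Pearson interval 9.11 to 22%), which make up 9.54% of the listed sequence in U2OS cells. The interval includes that share. Ramps, with 9.82% of the sequence, held 6 sites (4.65%, interval 1.73 to 9.85%), and islands, with 6.21%, held 2 (1.55%, interval 0.188 to 5.49%). Of the 30 sites in mid-late sequence, 63.3% (interval 43.9 to 80.1%) were in dips, against 36.2% of that sequence. The flanks of dips held 22 sites (17.1%, interval 11 to 24.7%) in 13.0% of the sequence. Without flanks that hold an interval over 1 Mb, the same 22 sites lay in 11.2% of the sequence. These shares are set against sequence length, and not against all AsiSI motifs, whose positions were not analysed here.

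The 19 sites lay in 19 different dips on 9 chromosomes, with 4 each on chromosomes 1 and X. These dips had a median length of 220 kb. Dips of 200 kb or more held 11 of the sites and make up 55.3% of all dip sequence, and dips in runs held 14 and make up 70.2%, so both counts were near the share of sequence. The sites lay 5.82 to 193 kb inside the nearest border, with a median of 47.3 kb. In 5 of the 19 dips (26.3%) there was an NS-seq peak, against 15% of all dips and 21.8% of dips of 200 to 500 kb. A peak lay within 100 kb of 7 sites and within 10 kb of 0, and the median distance from site to nearest peak was 583 kb.

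The nearest peak to any of them lay 16.4 kb from the site at 228328080 to 228328087 on chromosome 1, in the neighbouring mid-early domain. On chromosome X, the site at 153060539 to 153060546 lay 21.4 kb from a peak in its own dip of 158 kb. The site at 14076181 to 14076188 on chromosome 1 lay 30.6 kb from the single peak of a dip of 425 kb. Chromosome 16 had a site at 1543500 to 1543507, 47.8 kb from the single peak of its 74.4 kb dip, and a site at 88522374 to 88522381, 55.1 kb from the nearer of 2 peaks in a dip of a run of 6. The site at 42087117 to 42087124 on chromosome 20 lay 89.0 kb from a mid-early peak. The site at 179719534 to 179719541 on chromosome 5 lay 92.2 kb from a peak in its own dip of 394 kb, with a score of 17.1.

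For the other 12 sites, the nearest peak was outside the dip and at least 197 kb away. That distance belonged to the site at 53111426 to 53111433 on chromosome X, followed by 285 kb at 20032924 to 20032931 on chromosome 20. The distance was 583 kb for a site on chromosome 4 (147442808 to 147442815) and 626 kb for a site on chromosome 10 (6246104 to 6246111). Chromosome X had sites with distances of 692 kb (39949864 to 39949871) and 715 kb (37430899 to 37430906). The 6 farthest sites had no peak within 1 Mb. The nearest of these were at 208416787 to 208416794 (2776 kb) and 92198074 to 92198081 (3274 kb), both on chromosome 1. The farthest of the 19 lay 9533 kb from a peak.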

How the data were processed

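The values are 6 lists of regions on hg19 as deposited. The submitters' processing notes name MACS2 and hg19, with no version or parameters. The sources used here name no aligner, filter, or rule that divides the timing classes. The score of each NS-seq peak is the authors' deposited value, on no stated scale. Positions of timing intervals and AsiSI sites were deposited without a value, and read depth is unknown.

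Regions were placed by midpoint. The 26 peaks on chromosome Y and mitochondrial DNA were left out. Distances to chromosome ends run from the first base or the last listed base. On chromosomes 13, 14, 15, 21 and 22 the listed sequence starts well inside the chromosome, so distances to the first listed base are smaller there. Peak rates were compared by quasi-Poisson regression (statsmodels 0.14.6, Python 3.11.15), two-sided, with Benjamini-Hochberg adjustment over 3 comparisons, and over 5 values for length. Tested on simulated data, the estimates were recovered, but intervals were too narrow where the spread grew with the square of the mean. Values with errors clustered by chromosome are therefore given too. Regions named are the 10 longest dips, the 10 with most peaks, the shortest, the longest runs and the 15 sites nearest a peak. The comparison of lengths, and the alternatives on chromosome ends, were added after seeing the data. Members and lists were chosen with earlier results of these data known. Gene annotation and sequence on hg19 were not used here, so no genes or sequences are named.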

Additional observations from a re-analysis of the deposited data

How the results depend on the processing

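Of 245 alternatives over 9 results, 132 were planned and 113 added after seeing the data. In 222 the call held (for untested values, the change was within the counting interval or 1.5 times), and none turned in direction. The number of dips fell to 868 without domains under 50 kb. Peak density in dips moved to 1.05 per Mb with peaks at or above the median score, 0.809 with peaks within 100 kb joined, 1.63 without 12 windows of 1 Mb with more than 20 peaks, and 0.970 without chromosome ends. Dropping peaks by score or joining them lowers this density by construction. Peak density in dips ranged from 1.75 (without chromosome 8) to 2.09 (without chromosome 6) with a chromosome left out in turn.

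The ratio of dips to flanks was no longer past the threshold without wide flanks (1.19, or 1.19 with clustered errors), without chromosome ends (1.21) or without both (1.03). With a chromosome left out it ranged from 1.26 to 1.39, and the ratios to ramps and islands ranged from 2.31 to 2.62 and 3.22 to 3.81. Over all settings the ratio to ramps ran from 1.77 (joined peaks) to 2.62, and that to islands from 2.55 (joined peaks) to 3.81. The ratios of the change with length passed the threshold against ramps and islands without chromosome ends (0.704 and 0.575) and without dense windows (0.792 and 0.709), and against islands with joined peaks (0.744). With clustered errors, that against ramps without dense windows no longer did (adjusted p = 0.0854, n = 4114 domains), and without chromosome 8 it was at 0.04999 (n = 3923 domains). With a chromosome left out they ranged from 0.757 to 0.914 and from 0.707 to 0.884, and passed only without chromosome 8. The cause was not tested.

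Fits with GC content and gene density were not run, since no hg19 genome was used here. No paired analysis was possible because the lists are merged and carry no replicates. What read depth limits is unknown, and peaks scoring under 10.0 are not in the list.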
